A study of Mus musculus with 6 samples.

Results

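The genes described are 9 that build or mark the osteoblast programme: the RUNX transcription factors Runx1, Runx2 and Runx3, their shared partner Cbfb, the factors Sp7 (osterix) and Atf4, the osteocalcin genes Bglap and Bglap2, and Ifitm5. They were chosen by symbol among the 25899 genes of the deposited table, and all 9 were found. RNA was sequenced from the apical portion of the dental mesenchyme of first mandibular molars of mice at postnatal day 7.5, on a mixed background (C57Bl6/129S6/SvEvTac). There were 3 libraries from Gli1-CreER;Bmpr1a fl/fl mutants and 3 from littermate Bmpr1a fl/fl controls, and the study asked what BMP signaling does during tooth morphogenesis. Both genotypes carried loxP-flanked (floxed) alleles of Bmpr1a, a type I BMP receptor, and the label of the controls names no Cre driver. CreER is a recombinase that works once tamoxifen is given, and here it is made where the Gli1 driver is active, so cells without that history keep the receptor. The tamoxifen schedule is not given in the sources used here. Controls 1 and 2 and mutants 1 and 2 came from litter 1, and control 3 and mutant 3 from litter 2. The labels do not say whether a library holds 1 animal or pooled teeth, so p-values measure only the spread between these libraries.

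RUNX proteins bind DNA through a Runt domain and need CBFB, the product of Cbfb, for stable binding. RUNX2 commits mesenchymal cells to the osteoblast lineage, SP7 acts downstream of it, and ATF4 works with RUNX2 late in differentiation, when osteocalcin is made. In the tooth the same factors are also active in dental mesenchyme and in odontoblasts, the dentin-forming cells, and osteocalcin is made by mature odontoblasts as well as by osteoblasts. Ifitm5 (BRIL) encodes a membrane protein of mineralising osteoblasts.

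The osteocalcin genes Bglap and Bglap2 lie side by side on chromosome 3 of GRCm38, the build called mm10 in the submitters' processing notes. Bglap lies at chr3:88383501-88384464 and Bglap2 at chr3:88377736-88378699, both on the minus strand, 4801 bases apart. The coding sequences of Bglap and Bglap2 in GENCODE M21 are shown because they decide how far reads can be assigned to a copy. Capitals mark the bases at which the pair differ.
Bglap: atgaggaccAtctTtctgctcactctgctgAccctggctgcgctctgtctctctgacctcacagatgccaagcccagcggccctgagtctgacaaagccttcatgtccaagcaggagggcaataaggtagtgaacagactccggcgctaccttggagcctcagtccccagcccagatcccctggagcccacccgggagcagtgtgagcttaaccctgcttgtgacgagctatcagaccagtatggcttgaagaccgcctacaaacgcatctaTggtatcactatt
Bglap2: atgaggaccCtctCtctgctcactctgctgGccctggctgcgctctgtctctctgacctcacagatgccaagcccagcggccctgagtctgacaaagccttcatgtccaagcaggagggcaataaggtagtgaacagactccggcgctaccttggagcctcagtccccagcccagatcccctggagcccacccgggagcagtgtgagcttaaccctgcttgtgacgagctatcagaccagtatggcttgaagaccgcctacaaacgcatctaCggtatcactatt
They differ at 4 of 285 bases (98.6% identity), and 241 bases in a row are identical. Of the 75-base windows of the Bglap transcript, 66.1% occur unchanged in that of Bglap2. How reads shared by copies were counted is not given in the sources used here, so the division between copies is uncertain and their sum is given as well.

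The promoter of Bglap is a textbook meeting point of the factors described here, and it is shown with the 250 bases before the RefSeq start (GRCm38.p6, chr3:88384467-88384716, minus strand). Capitals mark ACCACA, the core letters bound by RUNX proteins, at 132 to 127 bases before the start, and TTACATCA, the letters of the known ATF4 element of this promoter, at 54 to 47 bases before it.
Bglap promoter: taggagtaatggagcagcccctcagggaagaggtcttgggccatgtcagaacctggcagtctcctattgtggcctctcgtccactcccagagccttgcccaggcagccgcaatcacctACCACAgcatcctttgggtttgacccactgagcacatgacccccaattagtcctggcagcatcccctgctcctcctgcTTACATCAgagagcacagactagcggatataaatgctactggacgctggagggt
The Runx2 promoter at chr17:44814628-44814877 (minus strand) holds ACCACA at 80 to 75 bases before its start, in capitals. It is shown because Runx2 is the member of the family on which the osteoblast lineage depends.
Runx2 promoter: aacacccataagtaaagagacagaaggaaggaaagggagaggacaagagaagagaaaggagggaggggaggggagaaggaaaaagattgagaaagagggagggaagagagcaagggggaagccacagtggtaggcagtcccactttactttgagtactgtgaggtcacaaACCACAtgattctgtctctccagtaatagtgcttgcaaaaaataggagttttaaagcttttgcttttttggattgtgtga
The search covered both strands of 9 promoters of the 7 genes matched in the RefSeq table. Sp7 and Bglap2 were not matched. ACCACA occurred in 3 of the 9, from Bglap, Runx2 and Runx3, against 14.0% of all 32851 promoters of that length. TTACATCA was taken from the known element of the Bglap promoter, so its match there, the 1 of the 9, was given in advance. It occurred in 0.965% of all promoters. A match describes letters and does not show a bound site.

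All 9 genes passed the filter of a mean of at least 1 RPM (reads per 1000000 mapped reads), and the smallest number of reads behind any value was 75. Bmpr1a, the floxed gene, was measured at 121, 139 and 150 RPM in controls 1 to 3 and at 108, 120 and 111 RPM in mutants 1 to 3, a gene total that does not separate the floxed exon from the rest. The libraries held between 15916045 and 20609420 reads on genes. Genotypes were compared with limma on log2(RPM + 1), with Benjamini-Hochberg adjustment over 14444 genes. None of the 9 genes passed adjustment (adjusted p 1.00 for each), and 0% of all tested genes did. None had an unadjusted p under 0.05 either, by this fit or by limma voom on the recovered reads, against 1.05% of all genes (0.692% lower and 0.360% higher). In 7 of 20 alternatives 1 or 2 of the 9 had, each lower in mutants and none past adjustment. They were Sp7 and Ifitm5 with the replicate block, Ifitm5 with the litter block, Runx3 and Ifitm5 in litter 1 alone and Runx3 with sample weights. Leaving out 1 library, they were Runx2 and Sp7 without control 1, Runx2 without mutant 1 (limma unadjusted p = 0.0242) and Sp7 without mutant 2. In none of the 9 did the mutant and control libraries separate, which 2.64% of all genes did. The fitted change was below 0 for 7 of the 9, against 54.4% of all genes, with a median of -0.27 against -0.01 over all genes. That count was 5 of 9 without mutant 3 (55.4% of all genes) and 8 of 9 without control 3 (64.5%). The median of the 9 was -0.61 without control 1, -0.47 without mutant 2, -0.42 without mutant 1 and -0.14 with sample weights.

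**Figure D1:**
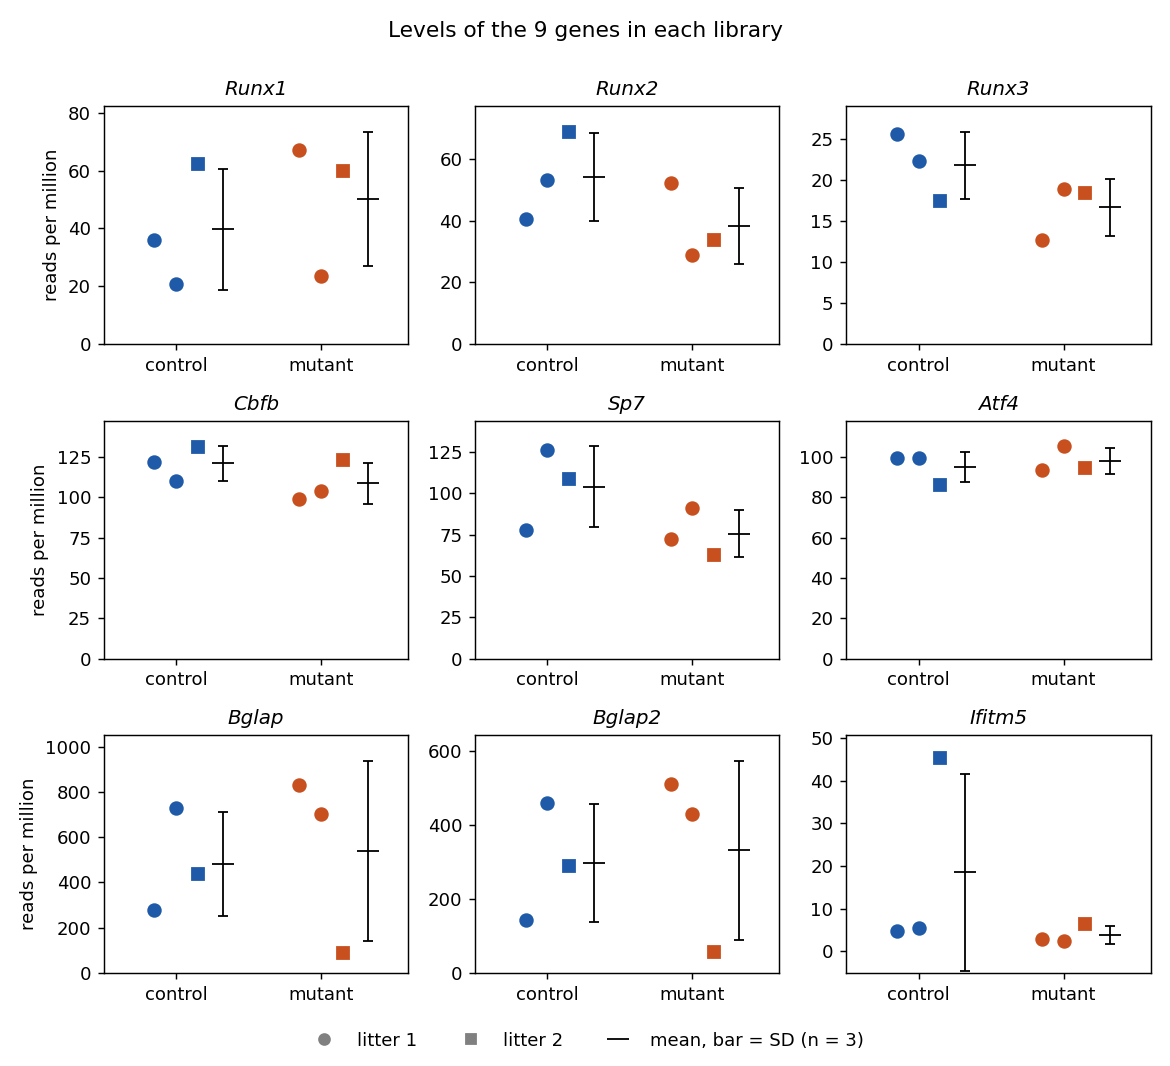
RPM of each of the 9 genes in the 3 control and 3 mutant libraries, with circles for litter 1, squares for litter 2, and the mean with its SD (n = 3 per genotype). Control and mutant libraries overlap in every panel. Osteocalcin is lowest in mutant 3 and Ifitm5 is highest in control 3.

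Among the regulators, Runx2 and Sp7 were lower on average in mutants, with overlapping libraries. Runx2 (chr17:44495987-44814797, minus strand), the factor without which bone does not form, was at 40.7, 53.3 and 69.0 RPM in controls 1 to 3 and at 52.3, 29.0 and 33.7 RPM in mutants 1 to 3. Mutants 2 and 3 lay below every control, and mutant 1 lay among the controls. The means were 54.3 ± 14.2 and 38.3 ± 12.3 RPM (SD, n = 3 each), a log2 difference of -0.50 (SE 0.27, limma unadjusted p = 0.102). Without mutant 1 it was -0.75. Within litter 1 the difference was -0.25 and within litter 2 it was -1.01. The exons of Runx2 overlap those of Runx2os1 on the opposite strand, and whether the counting used strand is not given in the sources used here.

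Sp7 (chr15:102356606-102367182, minus strand), the osteoblast factor downstream of Runx2, was at 77.8, 126 and 109 RPM in controls and at 72.5, 91.3 and 62.9 RPM in mutants. Control 1 lay below mutant 2, while the other controls lay above every mutant. The means were 104 ± 24.4 and 75.6 ± 14.4 RPM (SD, n = 3 each), a log2 difference of -0.45 (SE 0.22). Over the alternatives it ran from -0.64 without control 1 to -0.14 with sample weights. Its limma unadjusted p of 0.0818 was the smallest of the 9 genes. The difference was -0.28 within litter 1 and -0.78 within litter 2, where each genotype had 1 library. In bulk tissue, fewer cells of a type and less RNA per cell cannot be told apart, for these genes and for all that follow.

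Runx3 (chr4:135120652-135177990, plus strand), a family member known from cartilage, T cells and sensory neurons, was at 25.6, 22.3 and 17.4 RPM in controls and at 12.7, 18.9 and 18.4 RPM in mutants. Only control 3 lay within the range of the mutants. The log2 difference was -0.37 (SE 0.22, limma unadjusted p = 0.129; -0.59 to -0.20 over the alternatives), made up of -0.59 in litter 1 and 0.08 in litter 2. The limma test of whether the litters differ in this gave an unadjusted p of 0.148.

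Runx1 (chr16:92601466-92826149, minus strand), the blood stem cell factor that is also expressed in dental epithelium, was at 35.9, 20.9 and 62.4 RPM in controls and at 67.1, 23.7 and 59.8 RPM in mutants. High and low libraries occurred in both genotypes. The log2 difference was 0.33 (SE 0.49, limma unadjusted p = 0.519), and without control 2 it was -0.05. The 3 libraries highest in Runx1, control 3 and mutants 1 and 3, were also the highest in the summed RPM of 6 dental epithelium markers, Krt14 and Krt5 among them. That sum was 1577, 217 and 2783 RPM in controls 1 to 3 and 2857, 1035 and 3925 RPM in mutants 1 to 3. White blood cell markers (7 tested of 9) summed to 259, 306 and 119 RPM in controls and to 193, 394 and 198 RPM in mutants, and did not order the libraries as Runx1 did. The part of either cell type in the Runx1 values was not tested. Exons of Runx1 overlap those of Gm26626 on the opposite strand.

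Cbfb and Atf4 were the steadiest of the 9. Cbfb (chr8:105170674-105217989, plus strand) was at 122, 110 and 131 RPM in controls and at 99.0, 104 and 123 RPM in mutants. Its log2 difference was -0.16 (SE 0.14, limma unadjusted p = 0.314), and its highest value was 1.33 times its lowest. Within each genotype the litter 2 library was the highest.

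Atf4 (chr15:80255184-80257541, plus strand), a stress-response factor that is largely controlled at translation, was at 99.4, 99.4 and 86.2 RPM in controls and at 93.6, 105 and 94.6 RPM in mutants. The genotypes overlapped throughout, and the log2 difference was 0.04 (SE 0.13, limma unadjusted p = 0.746). Its range over the 6 libraries was 0.29 on the log2 scale, and only 8.09% of tested genes had a smaller one. The median gene ranged over 0.60.

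**Figure D2:**
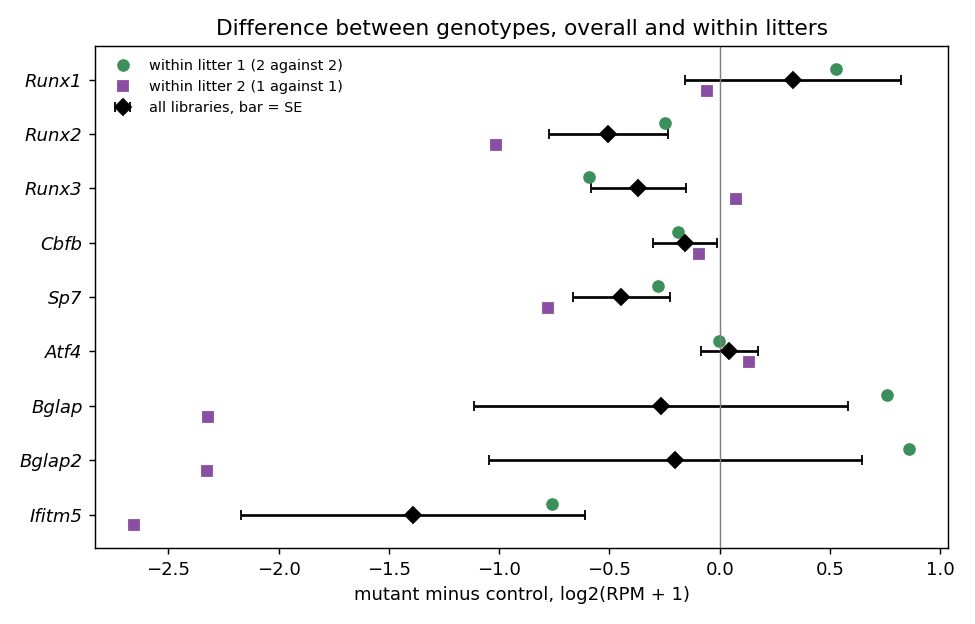
Mutant minus control difference on the log2(RPM + 1) scale for the 9 genes, with diamonds and SE bars for all 6 libraries, circles for litter 1 and squares for litter 2. Runx2, Cbfb, Sp7 and Ifitm5 lie below 0 in both litters, whereas Bglap and Bglap2 lie above 0 in litter 1 and at -2.32 in litter 2.

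Osteocalcin, the late vitamin K-dependent matrix protein, varied far more between libraries than between genotypes. Bglap was at 279, 730 and 437 RPM in controls and at 831, 702 and 86.8 RPM in mutants. Mutants 1 and 2 lay near or above the highest control, and mutant 3 lay below every other library. The arithmetic mean was higher in mutants (540 ± 398 RPM against 482 ± 229, SD, n = 3 each), whereas the log2 difference was -0.27 (SE 0.85, limma unadjusted p = 0.761). Mean and log difference thus disagree in sign.

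Bglap2 followed the same order, at 144, 459 and 288 RPM in controls and at 509, 428 and 56.7 RPM in mutants. Its log2 difference was -0.20 (SE 0.85, limma unadjusted p = 0.818). The ratio of Bglap2 to Bglap stayed between 0.515 and 0.659 in all 6 libraries.

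Summed over Bglap and Bglap2, osteocalcin was at 423, 1189 and 725 RPM in controls and at 1340, 1131 and 143 RPM in mutants. The highest library, mutant 1, was 9.34 times the lowest, mutant 3. The log2 difference between genotypes was -0.25, with an exact two-sided permutation p of 0.9, where the smallest possible with 3 against 3 is 0.1. Without mutant 3 the difference was 0.78 (exact permutation p = 0.3), and without control 2 it was 0.12 (exact permutation p = 1).

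Ifitm5 (chr7:140948958-140950291, minus strand) was at 4.84, 5.53 and 45.2 RPM in controls and at 2.81, 2.50 and 6.33 RPM in mutants. Control 3 stood far above the others, and mutant 3 was the second highest. Controls 1 and 2 lay above mutants 1 and 2, and mutant 3 lay above both of those controls. The reads behind these values numbered 147, 158 and 1280 in controls and 79, 75 and 151 in mutants. The exact 95% binomial interval was 42.8 to 47.7 RPM for control 3 and 5.36 to 7.42 RPM for mutant 3, for counting error only. The means were 18.5 ± 23.1 and 3.88 ± 2.13 RPM (SD, n = 3 each), a log2 difference of -1.39 (SE 0.78, limma unadjusted p = 0.117). Without control 3 it was -0.42 (limma unadjusted p = 0.272), and with litter as a block it stayed at -1.39 (SE 0.38, limma unadjusted p = 0.00947, adjusted p = 1.00). Exons of Ifitm5 overlap those of Gm45717 on the same strand.

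The litters were compared across the same 9 genes, with genotype as a term. Ifitm5 had the largest litter difference of the 9, 1.96 higher in litter 2 on the log2 scale (SE 0.41, limma unadjusted p = 0.00237, adjusted p = 0.0846). It was the 1 gene of the 9 with an unadjusted p under 0.05, against 20.9% of all tested genes, and none of the 9 passed adjustment, against 0.872%. Over the alternatives the adjusted p of Ifitm5 ran from 0.0354, with sample weights, to 0.345, without control 3, where the difference was 1.01. Bglap was lower in litter 2, by a fitted log2 difference of -1.58 (SE 0.71, limma unadjusted p = 0.0633), which was -0.05 without mutant 3. Without control 3 it was -3.12 (limma unadjusted p = 0.00128), further from 0 than the value for Ifitm5. Leaving out control 1, 2 of the 9 were lower and 1 higher at an unadjusted p under 0.05, and with sample weights 2 were lower and 2 higher. The lower genes were Bglap and Bglap2, near-identical copies that are not separate observations. Without mutant 1, or under median-of-ratios or upper-quartile scaling, 0 were lower and 2 higher. Of all 14444 genes, 1607 were lower and 1240 higher without control 1, and 3136 and 1479 with sample weights. Those counts were 3086 and 1162 without mutant 1, 2176 and 1810 under median-of-ratios and 2139 and 1744 under upper-quartile scaling. The litters did not overlap for 2 of the 9, Cbfb and Ifitm5, both higher in litter 2, against 35.5% of all genes (15.0% higher and 20.5% lower).

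For 3 of the 9 genes the genotype difference itself differed between litters at an unadjusted p under 0.05, and for each it was lower in litter 2. The share of all genes at that threshold was 5.06% (1.96% lower and 3.10% higher), none of the 9 passed adjustment, and 0% of all genes did. The litter 2 minus litter 1 value was -3.08 for Bglap (SE 0.78, limma unadjusted p = 0.00747, adjusted p = 0.716). It was -3.18 for Bglap2 (SE 0.89, limma unadjusted p = 0.0116, adjusted p = 0.7498) and -1.90 for Ifitm5 (SE 0.37, limma unadjusted p = 0.0020, adjusted p = 0.501). The median over all genes was 0.19 here, and -0.01 under median-of-ratios scaling, so these values stand further from 0 against the median gene than on their own. Under that scaling 456 of all genes were lower and 374 higher at the threshold, against 283 and 448. The test had 1 library per genotype in litter 2. Bglap and Bglap2 are near-identical copies whose reads cannot be fully told apart, so these 3 genes are not 3 separate observations.

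**Figure D3:**
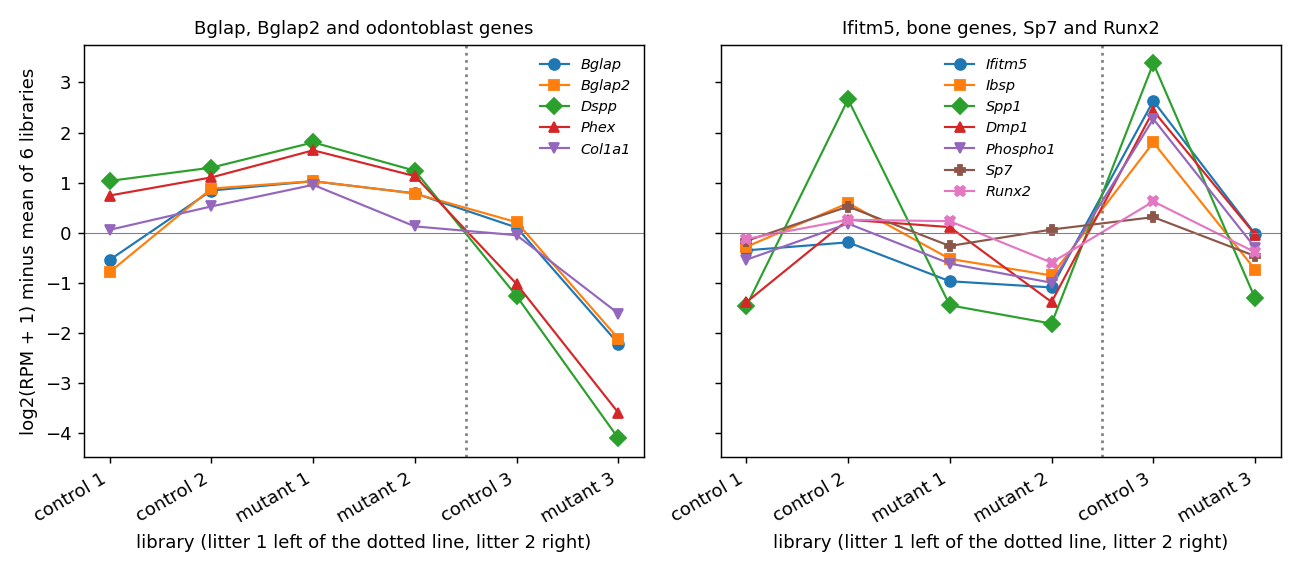
Each gene's log2(RPM + 1) minus its mean over the 6 libraries, with litter 1 left of the dotted line and litter 2 right of it. Bglap, Bglap2, Dspp, Phex and Col1a1 are lowest in mutant 3, and Ifitm5, Ibsp, Spp1, Dmp1 and Phospho1 are highest in control 3.

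Other matrix genes ran beside these patterns. Dspp, the dentin sialophosphoprotein gene and defining marker of odontoblasts, was at 4032, 4844 and 817 RPM in controls and at 6872, 4642 and 113 RPM in mutants. Like osteocalcin it was lowest in mutant 3, and unlike osteocalcin it was also low in control 3. Phex, an endopeptidase gene of phosphate handling named after its values were seen, was at 387, 498 and 113 RPM in controls and at 725, 507 and 18.2 RPM in mutants. Of 9 odontoblast genes, 8 were lower and 1 higher in mutants, when 54.4% of all genes were lower, with a median of -0.40 against -0.01. None had an unadjusted p under 0.05 by limma, against 1.05% of all genes. With the litter block 1 had, lower in mutants, when 210 of all 14444 genes were lower at that p. With the replicate block 2 had, against 231 of all genes. Leaving out control 1 gave 2, when 139 of all genes were lower at that p. Leaving out control 2 (94 of all genes) or mutant 3 (174), or litter 1 alone (259), gave 1. The median ran down to -0.68 without mutant 1 and up to -0.18 without control 2. Without mutant 3, 3 were lower and 6 higher, with a median of 0.36, when 55.4% of all genes were lower. All 9 were lower in the mutant of litter 2 than in its control, against 4 of 9 in litter 1. Between litters, 4 of the 9 were lower and 2 higher in litter 2 at an unadjusted p under 0.05 by limma, against 13.7% and 7.21% of all genes. The litters did not overlap for 5 of these 9, each lower in litter 2, against 20.5% of all genes in that direction. Of these only Sall1, named for that reason, passed adjustment, with a log2 difference of -2.08 (SE 0.22, limma adjusted p = 0.0336). With sample weights 4 of the 9 odontoblast genes passed, when 1209 of all 14444 genes did, against 126 in the main fit. Sall1 passed under 9 of 17 alternatives. It did not under median-of-ratios, upper-quartile or quantile scaling, without the filter, by limma voom, or without control 3 (limma adjusted p = 0.0897), mutant 2 (0.171) or mutant 3 (0.111).

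Of the listed osteoblast and bone matrix genes, Ibsp, Spp1, Dmp1 and Phospho1 were, like Ifitm5, highest in control 3. Omd, Mef2c and Alpl of that list were also highest there. Phex and Col1a1, likewise listed, were lowest of the controls in control 3 and highest in mutant 1. The list of 19 summed to 29874, 38590 and 29367 RPM in controls 1 to 3 and to 51704, 32378 and 11883 RPM in mutants 1 to 3. Ibsp, bone sialoprotein, was at 35.5, 65.9 and 154 RPM in controls and at 29.9, 23.6 and 25.7 RPM in mutants. Every mutant lay below every control, with control 3 the highest. The log2 difference was -1.41 (SE 0.47, limma unadjusted p = 0.0195, adjusted p = 1.00), and it was -0.86 without control 3.

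Spp1, osteopontin, was at 4.54, 96.1 and 159 RPM in controls and at 4.62, 3.36 and 5.20 RPM in mutants, so control 1 lay among the mutants. Its log2 difference was -3.05 (SE 1.14, limma unadjusted p = 0.0312), and without control 1 it was -4.55 (limma adjusted p = 0.0334). With sample weights it was -1.46 (limma unadjusted p = 0.278), and it had an unadjusted p under 0.05 in 12 of 20 alternatives. Dmp1, a phosphoprotein gene of osteocytes and odontoblasts, was at 5.33, 18.9 and 88.7 RPM in controls and at 16.9, 5.36 and 15.2 RPM in mutants. Phospho1, a phosphatase gene of early mineralisation named after its values were seen, was at 5.86, 10.3 and 47.2 RPM in controls and at 5.51, 3.99 and 7.12 RPM in mutants. Control 3 was the highest library for both genes.

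Of 19 osteoblast and bone matrix genes, 17 were tested and all 17 had a fitted change below 0, against 54.4% of all genes, with a median of -0.44 against -0.01. That count was 13 of 17 without mutant 3 and 15 of 17 without control 3. None passed adjustment, and 4 (Ibsp, Spp1, Omd and Mef2c) had an unadjusted p under 0.05 by limma, against 0.692% of all genes in that direction. Those 4 became 7 with the replicate block, 5 with the litter block and 5 without control 1, where 231, 210 and 139 of all 14444 genes were lower at that p, against 100 with all libraries and no block. They became 1 without control 3 or without mutant 1, and 2 without control 2, without mutant 2, with sample weights or by limma voom. Within litter 1 alone 11 of the 17 were lower, against 67.7% of all genes. The list shares Dmp1, Phex, Smpd3 and Col1a1 with the odontoblast list. The osteocyte genes Sost and Mepe were below the filter, and Sost had 102 reads in control 3 against 0 to 4 in each other library. Mepe had 12 reads in control 3 and 0 in the other libraries.

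Red cell markers (6 tested of 7) summed to 230, 268 and 2524 RPM in controls and to 336, 588 and 774 RPM in mutants. Glia and nerve markers (5 of 5 tested) summed to 199 RPM in control 3 and to between 41.1 and 94.5 RPM elsewhere, so both sums were highest in control 3. Enamel-forming epithelium markers (7 of 7 tested) summed to 3562, 2143 and 36754 RPM in controls and to 47440, 4454 and 17083 RPM in mutants. Osteoclast markers, of which Acp5 and Ctsk passed the filter of 7 listed, summed to between 154 and 199 RPM in controls and to between 115 and 171 RPM in mutants. Endothelial markers (5 of 5) summed to 271 to 348 RPM in controls and to 221 to 321 RPM in mutants, and dental mesenchyme markers (7 of 8 tested) to 5259 to 7877 and to 4409 to 6799 RPM. Among the 7 dental mesenchyme genes, 5 were lower and 2 higher in mutants, and Lhx8 and Lhx6 were lower at an unadjusted p under 0.05 by limma, against 0.692% of all genes in that direction. Lhx8, a homeobox gene of dental mesenchyme, was at 19.3, 19.5 and 22.6 RPM in controls and at 13.4, 14.6 and 16.0 RPM in mutants, every mutant below every control, which held for 1.67% of all genes (log2 difference -0.46, limma unadjusted p = 0.0180, adjusted p = 1.00). Lhx6, a related homeobox gene, was at 40.8, 34.9 and 46.6 RPM in controls and at 20.6, 28.2 and 35.8 RPM in mutants (log2 difference -0.54, limma unadjusted p = 0.0431, adjusted p = 1.00). Without control 3 or without mutant 2, neither gene had an unadjusted p under 0.05. No listed marker was at 0 in all libraries. The part of these cell types in the values of Ifitm5, osteocalcin, Runx2 and Sp7 was not tested.

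RUNX2 works with co-activators and is held back by inhibitors, and 18 of the 19 listed partners found in the deposited table passed the filter and were tested. In mutants 12 were lower and 6 higher, with a median of -0.10, and none passed adjustment. In litter 1 alone 17 of the 18 were lower, against 67.7% of all genes, within litter 2 there were 7, and with sample weights 16. None had an unadjusted p under 0.05 by limma, against 1.05% of all genes, and Twist1 was the 1 gene among them whose libraries did not overlap between genotypes, against 2.64% of all genes. With the litter block 1 had an unadjusted p under 0.05, with the replicate block 1, and in litter 1 alone 3, each lower in mutants. Of all 14444 genes, 210, 231 and 259 were lower at that p in those fits. Without mutant 3 there were 3 lower (174 of all genes), and without control 1 there were 2 lower and 1 higher (139 and 186). With sample weights 2 were lower (235). Under median-of-ratios, upper-quartile or quantile scaling 1 was lower (103, 107 and 105). Without the filter 1 was lower, against 195 of 19290 genes.

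Twist1, an inhibitor of RUNX2, was at 68.6, 61.8 and 60.1 RPM in controls and at 41.4, 45.4 and 60.0 RPM in mutants. The libraries did not overlap, though control 3 and mutant 3 were nearly equal. The log2 difference was -0.38 (SE 0.17, limma unadjusted p = 0.0533). The p was 0.0441 with the litter block and 0.0590 with the replicate block, and it was under 0.05 in 8 of 20 alternatives by limma, with an adjusted p of 1.00 at the lowest.

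Among 13 further genes known to be bound or activated by RUNX factors, 10 were tested, 7 were lower and 3 higher in mutants, and none passed adjustment. The 2 with an unadjusted p under 0.05 by limma were Ibsp and Spp1, described above, against 0.692% of all genes in that direction. That count was 4 without control 1, when Spp1 was the 1 gene of all 14444 to pass adjustment and 139 were lower at that p. With the replicate block 2 were lower and 1 higher, against 231 and 293 of all genes. The lower count was 1 by limma voom (93 of all genes), in litter 1 alone (259), or without control 2 (94), control 3 (147), mutant 2 (119) or mutant 3 (174). It was 0 with sample weights (235), and 3 of 13 without the filter, against 195 of 19290 genes. Mmp13, a collagenase gene of osteoblasts and hypertrophic cartilage named after its values were seen, was at 12.8, 73.9 and 91.3 RPM in controls and at 35.0, 10.8 and 12.8 RPM in mutants (limma unadjusted p = 0.119).

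Targets of ATF4 in the amino acid response are enzymes and transporters of amino acid supply and stress-response factors. Of 16 tested, 9 were lower and 7 higher in mutants, with a median of -0.04, when 54.4% of all genes were lower. None had an unadjusted p under 0.05 by limma, against 1.05% of all genes. Without mutant 1, 5 were lower and 11 higher, when 37.3% of all genes were lower. Between litters, 7 were higher and 4 lower in litter 2 at an unadjusted p under 0.05, against 7.21% and 13.7% of all genes. Those counts were 4 and 2 without control 2, against 485 higher and 1260 lower of all 14444 genes. They were 5 and 2 without mutant 2, against 786 and 1277. Under median-of-ratios scaling they were 7 and 4, and over all genes 1810 higher and 2176 lower, against 1041 and 1985. The median litter difference of the 16 was 0.37, and it was 0.17 without control 3 and 0.22 without mutant 3, where litter 2 had 1 library.

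Slc7a5, a neutral amino acid transporter gene named after its values were seen, was at 46.4, 29.3 and 123 RPM in controls and at 40.9, 34.9 and 73.8 RPM in mutants (limma adjusted p = 0.0672 between litters). Phgdh, the first enzyme of serine synthesis and likewise named after its values were seen, was 1.01 higher in litter 2 on the log2 scale (SE 0.27, limma adjusted p = 0.128). Atf5 and Chac1 were the 2 of 16 that passed adjustment, both lower in litter 2, against 0.872% of all genes. Atf5, a stress-response factor, was at 182, 170 and 78.0 RPM in controls and at 169, 183 and 70.1 RPM in mutants (limma adjusted p = 0.0335). Chac1, a glutathione-degrading enzyme gene named after its values were seen, was at 5.69, 4.62 and 1.69 RPM in controls and at 6.72, 6.39 and 1.51 RPM in mutants (limma adjusted p = 0.0445). Neither passed under median-of-ratios, upper-quartile or quantile scaling, without the filter, by limma voom, or without control 3, mutant 2 or mutant 3, and Chac1 did not without control 1 or control 2. Atf4 itself differed between litters by -0.14 (SE 0.12, limma unadjusted p = 0.300).

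Of 4 Ifitm relatives tested, none had an unadjusted p under 0.05 between genotypes by limma, and the 2 most abundant are given here. Ifitm2, an antiviral membrane protein gene, was at 155, 143 and 152 RPM in controls and at 117, 156 and 179 RPM in mutants. Ifitm3, its near relative, was at 69.4, 75.2 and 50.03 RPM in controls and at 54.6, 85.1 and 63.1 RPM in mutants. Control 3, the highest library for Ifitm5, was the lowest for Ifitm3 and in the middle for Ifitm2.

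Levels can be compared between genes once divided by exon length, as RPM per kilobase of the union of annotated exons. Bglap (827 ± 472, SD over 6 libraries) and Bglap2 (667 ± 389) stood above the other 7 in every library. Atf4 (40.9 ± 2.76) and Cbfb (33.0 ± 3.59) came next, and Atf4 exceeded Cbfb in 5 of 6 libraries. Sp7 (26.4 ± 6.99) lay below Cbfb in 5 of 6 libraries. Ifitm5 (14.6 ± 21.9) was below Sp7 in 5 of 6 libraries and above it in control 3. By mean the RUNX genes were lowest, although Ifitm5 exceeded Runx2 in only 4 of 6 libraries and lay below it in mutants 1 and 2. Their means were 5.24 ± 1.67 for Runx2, 3.84 ± 0.879 for Runx3 and 3.74 ± 1.72 for Runx1. Their order was not stable, since Runx2 exceeded Runx3 in 4 of 6 libraries and Runx3 exceeded Runx1 in 3 of 6. Of the summed RUNX level per kilobase, Runx2 made up 30.6% to 49.3%, Runx3 18.1% to 41.9% and Runx1 14.2% to 39.9% over the libraries. Cbfb was between 2.03 and 3.31 times that sum. The exon unions include long alternative ends (12025 bases for Runx1 and 8837 for Runx2), which lowers these values where shorter transcripts are made.

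**Figure D4:**
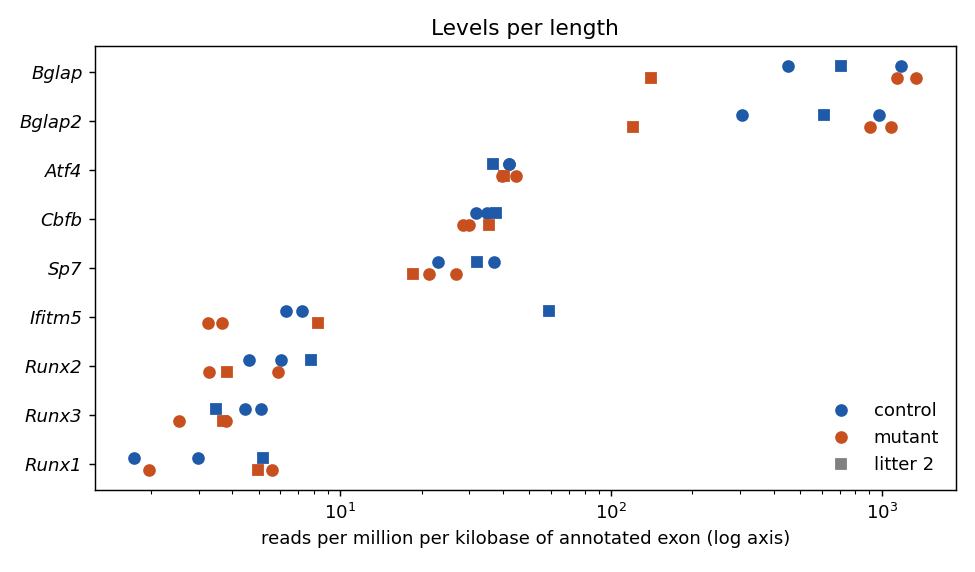
RPM per kilobase of annotated exon on a log axis for the 9 genes in the 6 libraries, coloured by genotype and with squares for litter 2. Bglap and Bglap2 lie highest in every library, Atf4 and Cbfb have the narrowest spread, and Ifitm5 in control 3 is far to the right of its other libraries.

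The 9 genes also differed in spread. Ifitm5 ranged over 3.72 on the log2 scale between its lowest and highest library, Bglap over 3.24 and Bglap2 over 3.15, and 99.4%, 98.9% and 98.9% of tested genes had a smaller range. Runx1 ranged over 1.64, Runx2 over 1.22, Sp7 over 0.99 and Runx3 over 0.96, and Cbfb over 0.41. Osteocalcin and Ifitm5 ordered the libraries differently, with the highest value in mutant 1 and in control 3.

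The genes most like Sp7 over the 6 libraries, among 11815 with a mean of at least 5 RPM, were Dlx3 (Pearson r = 0.99), Ankrd6 (0.98), Lhfpl2 (0.98), Tm9sf2 (0.98) and Scrn1 (0.98). Dlx3, a homeobox gene of odontoblasts and osteoblasts, was at 152, 255 and 210 RPM in controls and at 141, 182 and 137 RPM in mutants, the same order of libraries as Sp7. The genes most like summed osteocalcin, among 11813, were Leprel4 (0.98), Cited4 (0.98), Nhsl1 (0.97), Pla2g5 (0.97) and Klhl5 (0.97). Leprel4, a leprecan family gene of collagen processing, was at 112, 131 and 122 RPM in controls and at 132, 122 and 87.1 RPM in mutants. All 5 were lowest in mutant 3. Over 6 libraries from 2 litters, such likeness describes these libraries.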

How the data were processed

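Per the labels' protocols, polyadenylated RNA was sequenced on an Illumina system. TopHat2 and mm10 are named in the submitters' processing notes, and the counting program and annotation are not given in the sources used here. The authors deposited 1 table of log2 values for 25899 symbols. Raised as powers of 2, 99.96% to 99.99% of the values of a column were whole multiples of 1 step (tolerance 0.05 of a read), with no division by gene length. This makes them log2 RPM with an inferred denominator, although the table is titled RPKM. Symbols without reads were listed at 0.9 of a step and set to 0. A level of 3 reads was 0.0987 to 0.126 RPM. Limits and intervals cover counting error only.

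The main test was limma 3.58.1 under R 4.3.3 (lmFit, eBayes with trend, two-sided, Benjamini-Hochberg over all 14444 symbols with a mean of at least 1 RPM), run on log2(RPM + 1). Such differences understate the change of low genes. The designs were genotype alone, litter with genotype, and their interaction. The planned test assumed linear RPKM and was applied to linear RPM. The genotype fit was checked on simulated counts with the same dispersion for every gene and no litter effect. The litter and interaction fits were not checked in this way. The sum of Bglap and Bglap2 was tested by exact permutation. No pair of libraries agreed within sampling noise (chi-square per degree of freedom at least 22.3). The members and lists were chosen with earlier results of these data known. Of each list, the genes named had an unadjusted p under 0.05 or no overlap between genotypes, at most 6 per list, or else were the 2 most abundant, with defining markers added, and exceptions are stated. Some listed items are not reported here, and lists and sums leave them out. Likeness to Sp7 and osteocalcin was ranked by Pearson r of log2(RPM + 1), and the 5 highest are named. Alternatives covered pseudocounts, filters, scalings, sample weights, voom on reads recovered by division by the step, blocks and leaving out each library; leaving out a litter 2 library in the litter comparison was added after seeing the data. Positions are from GENCODE M21 (GRCm38) and promoters from RefSeq (GRCm38.p6).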

Additional observations from a re-analysis of the deposited data

Results flagged for a closer look

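Of 48 genes examined, 7 had both litter 1 mutants on one side of both litter 1 controls and the litter 2 mutant on the opposite side of its control. The same pattern held for 18.2% of all tested genes. The values below are litter 2 minus litter 1 differences of the genotype effect on the log2(RPM + 1) scale, each with the limma unadjusted p of that difference, and none passed Benjamini-Hochberg adjustment. Among the 9 osteoblast genes it was Runx3, at 0.67 (limma unadjusted p = 0.148). Phex, named after its values were seen, was at -3.04 (limma unadjusted p = 0.000371, adjusted p = 0.501). The globin genes Hbb-b1 and Hba-a1 were at -2.64 (limma unadjusted p = 0.00208) and -2.45 (limma unadjusted p = 0.00311). The enamel genes Amelx and Ambn were at -3.44 (limma unadjusted p = 0.151) and -3.64 (limma unadjusted p = 0.120). Chac1, an ATF4 target also named after its values were seen, was at -0.40 (limma unadjusted p = 0.349).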

How the results depend on the processing

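None of the 9 osteoblast genes passed adjustment for genotype or its interaction with litter under any alternative run, and for litter Ifitm5 alone did, with sample weights. Differences below are log2, and the cause of the shifts was not tested. Between genotypes, genes with an unadjusted p under 0.05 by limma numbered 152, against 344 without a filter, 309 with sample weights, 524 with the replicate block, 292 with the litter block, 319 in litter 1 alone and 68 to 325 leaving out 1 library, when 0 to 1 passed adjustment. Between litters, 126 passed adjustment, against 2 without a filter, 0 with median-of-ratios, 1 with upper-quartile and 4 with quantile scaling, 1 by voom, 1209 with sample weights and 0 to 371 leaving out 1 library. Unadjusted, 3026 became 4615 with sample weights and 1393 to 4248 leaving out 1 library. Bglap turned to 0.37 with sample weights and 0.76 in litter 1 alone, Bglap2 to 0.55 and 0.86, and Atf4 to -0.0015 in litter 1 alone. Leaving out 1 library, the genotype difference ran from -0.85 to 0.77 for Bglap, -0.77 to 0.80 for Bglap2, -0.024 to 0.077 for Atf4, -0.048 to 0.79 for Runx1 and -0.82 to 0.78 for summed osteocalcin. The litter difference then ran from -0.21 to 0.56 for Runx2, -0.43 to 0.24 for Runx3, -0.37 to 0.13 for Sp7 and -3.02 to 0.16 for Bglap2. The interaction turned to -0.13 for Cbfb and -0.084 for Atf4 with median-of-ratios, to -0.065 and -0.023 with upper-quartile, and to -0.021 and -0.014 with quantile scaling.

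Same-numbered libraries share a litter, and within litter 1 they share only a number. Their deviations correlated at -0.03, 0.75 and 0.50. Control 1 correlated with mutant 2 at 0.04 and with mutant 3 at -0.01, so it matched no mutant closely. With the replicate block Sp7 had a limma unadjusted p of 0.0324 and Ifitm5 of 0.0114, with 0 genes past adjustment. The fit with sample weights reached no full convergence. Litter 2 holds 1 library per genotype, and leaving out 1 of them leaves that litter with a lone library assumed to vary like the others.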
